A study of Mus musculus with 5 samples.

Results

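The Nxf and Nxt genes of the mouse, which encode the receptors that carry mRNA out of the nucleus and their small cofactors, were followed in RNA-seq of embryonic cerebral cortex with and without Uhrf1. The 6 members, Nxf1, Nxf2, Nxf3, Nxf7, Nxt1 and Nxt2, were taken by gene name from a table of 23997 names, and they were selected on their FPKM values in the cKO and control libraries, which were already known, so the difference between the groups in these 6 genes is given as a description without a test. All 6 were present in the table, and 4 of them (Nxf1, Nxf3, Nxt1 and Nxt2) averaged 0.1 FPKM or more across the 5 libraries. FPKM counts fragments per kilobase of a transcript relative to all mapped fragments of its library. Nxf3 reached that mean only through the cKO libraries.

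Uhrf1 encodes a protein that recruits the maintenance DNA methyltransferase to newly replicated DNA. The cKO group consisted of 2 libraries (MG18 and MG19) from Uhrf1 -/- cortex and the control group of 3 libraries (MG15, MG16 and MG17) from Uhrf1 +/- cortex, all from the entire cortex at embryonic day 16 in a C57BL/6 background. Per the study's methods, animals of both groups carried Emx1-driven Cre, which deletes a floxed exon of Uhrf1 in the dorsal telencephalon, so controls also lacked Uhrf1 on 1 allele and cells outside the Emx1 lineage kept the gene in both groups. In such bulk tissue, fewer cells of a type and less RNA per cell cannot be told apart.

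Nxf1 (also known as TAP) forms a heterodimer with Nxt1 (p15), binds mature mRNA through adapter proteins and moves it through the nuclear pore by contacts with nucleoporins. Nxf2, Nxf3 and Nxf7 are X-linked relatives of Nxf1 with restricted expression. Nxf2 is known from male germ cells and Nxf3 from Sertoli cells, the somatic cells that support germ cells in the testis, and human NXF3 was described to leave the nucleus through the exportin CRM1. Nxt2 is an X-linked relative of Nxt1.

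The 4 Nxf genes differ in sequence along their whole length. One exon of equal length in all 4 is printed because the values below turn on separating Nxf3 from its relatives. Each stretch is 105 bases on the coding strand (GENCODE M21 transcripts, GRCm38). Capitals mark bases without a match to Nxf3 in a pairwise alignment: 35 in Nxf1, 36 in Nxf2 and 41 in Nxf7. The alignments of Nxf1 and Nxf7 hold gaps, so a lower-case base there can match Nxf3 at a shifted position. The stretches are exon 5 of 19 in Nxf3 at chrX:136079361-136079465 (minus strand), exon 5 of 21 in Nxf1 at chr19:8763697-8763801 (plus strand), exon 6 of 22 in Nxf2 at chrX:134956363-134956467 (minus strand) and exon 7 of 23 in Nxf7 at chrX:135588373-135588477 (minus strand).
Nxf3: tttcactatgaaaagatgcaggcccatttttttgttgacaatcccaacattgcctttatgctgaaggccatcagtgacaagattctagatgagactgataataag
Nxf1: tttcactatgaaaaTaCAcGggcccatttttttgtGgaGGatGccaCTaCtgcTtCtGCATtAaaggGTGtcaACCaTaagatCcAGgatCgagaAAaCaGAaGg
Nxf2: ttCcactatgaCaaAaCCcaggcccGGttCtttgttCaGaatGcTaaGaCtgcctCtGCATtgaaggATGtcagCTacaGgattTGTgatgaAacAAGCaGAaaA
Nxf7: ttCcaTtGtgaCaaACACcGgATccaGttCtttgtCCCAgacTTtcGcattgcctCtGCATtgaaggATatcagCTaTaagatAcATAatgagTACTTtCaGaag

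Over the whole coding sequence, Nxf3 was 63.2% identical to Nxf1, 65.6% to Nxf2 and 65.0% to Nxf7. The longest run of bases that the Nxf3 transcript shared with any of the 3 other transcripts, at any position, was 19 bases, against a read length of 100 bases. None of the 2948 stretches of 31 bases in the Nxf3 transcript occurred in a transcript of another gene. The same count was 0 for Nxf1, Nxf2 and Nxt2, while 105 of 2203 stretches (4.77%) of Nxf7 and 130 of 1086 (11.97%) of Nxt1 were shared with other genes, so the values of Nxf7 and Nxt1 are less certain in a table from which reads with several matching places were removed. The encoded proteins were 552 residues for Nxf3, 617 for Nxf1, 690 for Nxf2 and 619 for Nxf7, and the cofactors were 139 residues for Nxt1 and 197 for Nxt2.

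Of 14691 genes tested in all, 421 (2.87%) were called higher in cKO and 171 (1.16%) lower (limma, more than 2-fold with an unadjusted p under 0.05), and 161 (1.1%) and 24 (0.163%) passed an adjusted p of 0.05. Quantile normalization moved the split of calls to 320 higher and 280 lower. At an unadjusted p under 0.05 with no fold limit there were 1695 genes (limma), 935 higher and 760 lower. Read counts were not used here, and depth could be estimated from steps between low FPKM values in 3 libraries, at about 9684000 fragments in the cKO library MG19, against 15415000 in the control MG16 and 10297000 in the control MG17. In MG18 and MG15 the steps were too weak for an estimate. Small RNAs, which were not tested, took 54.6% and 73.4% of the summed FPKM in cKO, against 64.9% to 88.4% in the controls. Uhrf1 was measured at 2.75 and 2.61 FPKM in cKO, against 7.24, 13.2 and 13.0 FPKM in the controls (log2 difference -1.97, SE 0.28, adjusted p = 0.00752, limma). Every cKO value was below every control value. With MG18 or MG19 left out, the adjusted p was 0.254 or 0.26 (limma), the lone cKO library being assumed to vary like the controls, and a two-sided exact permutation test on the FPKM means gave p = 0.2, where 0.1 is the smallest it can give.

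Among the X-linked relatives, Nxf3 alone was measured above trace level, and only in cKO. Nxf3 (minus strand) spans chrX:136071523-136139579 in RefSeq but only chrX:136072099-136085255 in its GENCODE M21 transcript, and which gene model the table used is not stated in the sources used here. It had 3.36 FPKM in MG18 and 2.03 FPKM in MG19, against 0 FPKM in each of the 3 controls. Both cKO libraries therefore held the transcript and all 3 controls were listed at 0, with no overlap. If the GENCODE transcript of 2978 bases applies, the value in MG19 corresponds to about 58.5 fragments, and a level of 3 fragments would have been 0.0654 FPKM in MG16 and 0.0978 FPKM in MG17. No fold is given against a group listed at 0. The fitted difference was 4.76 on the log2(FPKM + 0.1) scale (SE 0.42), and its size depends on the added 0.1.

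Nxf2 (chrX:134944526-134964754, minus strand) had 0.0397 FPKM in MG18 and 0 in MG19, against 0.123 FPKM in MG16 and 0 in MG15 and MG17. Its highest value was in a control. With its transcript of 2393 bases, the value in MG16 is worth about 4.54 fragments. Nxf7 (chrX:135579555-135598781, minus strand) was listed at 0 in all 5 libraries, where 3 fragments would have given 0.139 FPKM in MG19, against 0.0872 FPKM in MG16 and 0.130 FPKM in MG17. Neither gene reached the mean of 0.1 FPKM, and a difference between the groups was not detectable in either at this depth.

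**Figure D1:**
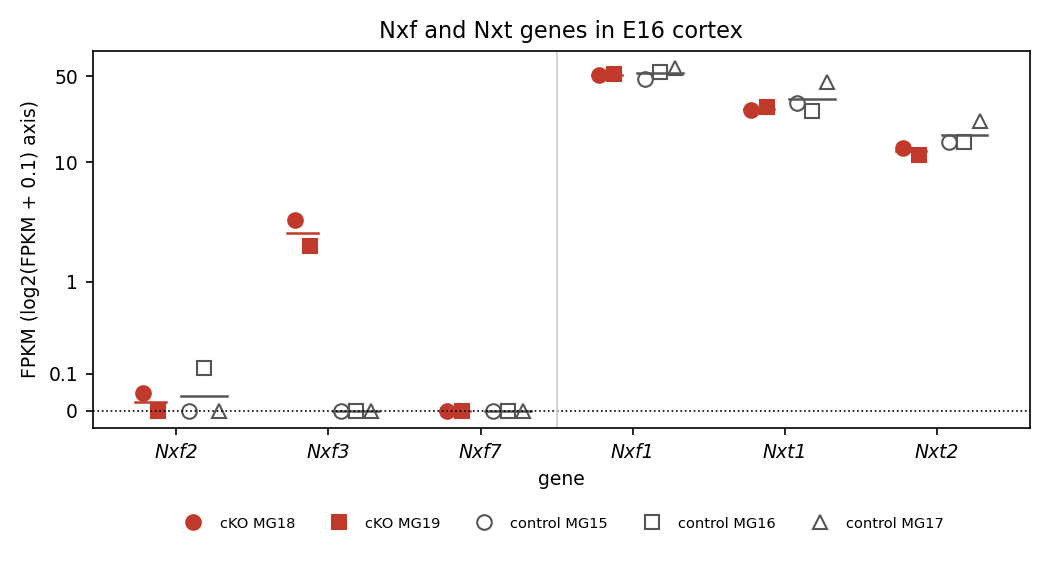
FPKM of the 3 X-linked Nxf relatives (left) and of Nxf1, Nxt1 and Nxt2 (right) in each library, on a log2(FPKM + 0.1) axis; filled red symbols are the 2 cKO libraries, open grey symbols the 3 controls, lines the group means on that axis. Nxf3 sits at 3.36 and 2.03 FPKM in cKO and at 0 in all controls, while Nxf1, Nxt1 and Nxt2 lie above 11 FPKM in every library.

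The general receptor and its cofactors were measured in every library of both groups. Nxf1 (chr19:8757103-8770910, plus strand) had 50.6 and 52.1 FPKM in cKO, against 47.3, 53.6 and 58.2 FPKM in the controls. The cKO values lay inside the range of the controls. The means were 51.4 ± 1.06 FPKM in cKO (SD, n = 2) and 53.0 ± 5.44 FPKM in controls (SD, n = 3), a log2 difference of -0.04 (SE 0.16).

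Nxt1 (chr2:148672615-148676026, plus strand), the cofactor that Nxf1 needs to bind nucleoporins, had 26.4 and 28.0 FPKM in cKO, against 30.1, 25.9 and 45.0 FPKM in the controls. The groups overlapped, and the control MG17 stood above the other 4 libraries. The means were 27.2 ± 1.16 FPKM in cKO (SD, n = 2) and 33.7 ± 10.1 FPKM in controls (SD, n = 3), with a log2 difference of -0.27 (SE 0.23).

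Nxt2 (chrX:142226770-142239700, plus strand) had 13.2 and 11.4 FPKM in cKO, against 14.7, 14.5 and 21.7 FPKM in the controls. Both cKO libraries lay below all 3 controls, as they did for 16.3% of all genes tested, and MG17 was again the highest library. The means were 12.3 ± 1.25 FPKM in cKO (SD, n = 2) and 16.9 ± 4.08 FPKM in controls (SD, n = 3), that in cKO being 72.6% of that in controls (log2 difference -0.44, SE 0.21). Without MG17 the log2 difference was -0.25 for Nxt2, -0.04 for Nxt1 and 0.03 for Nxf1.

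Of the 4 members tested, Nxf3 was in the set called higher, which held 2.87% of all genes tested, and Nxf1, Nxt1 and Nxt2 were in neither set. The choice of members used this contrast, so nothing is read from that count. In the order of FPKM, which is per length, Nxf1 stood above Nxt1 and Nxt1 above Nxt2 in every library. The ranges of these 3 genes over the 5 libraries did not overlap, at 47.3 to 58.2 FPKM for Nxf1, 25.9 to 45.0 for Nxt1 and 11.4 to 21.7 for Nxt2. In both cKO libraries Nxf3 came next below Nxt2.

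Set against Nxf1 in the same library, Nxf3 came to 6.63% of the Nxf1 level in MG18 and to 3.89% in MG19. The sum of the 4 Nxf genes was 54.0 and 54.1 FPKM in cKO, against 47.3, 53.7 and 58.2 FPKM in the controls. Nxf3 made up 6.22% and 3.75% of that sum in cKO, and the summed level in cKO lay within the control range.

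The sum of Nxt1 and Nxt2 was 39.6 and 39.5 FPKM in cKO, against 44.7, 40.4 and 66.7 FPKM in the controls. Relative to the summed Nxf level, the cofactors stood at 73.3% and 72.9% in cKO, against 94.5%, 75.3% and 115% in the controls. The cKO libraries were below all 3 controls in both measures, by a small margin to MG16 and a wide one to MG17. Both measures contain Nxt2, which had this order by itself, as did 16.3% of all genes tested. Nxt1 was 2.0 and 2.45 times as high as Nxt2 in cKO, against 2.05, 1.78 and 2.08 times in the controls.

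The libraries came from animals of both sexes, which bears on the X-linked members. The Y-linked gene Ddx3y was at 13.3 FPKM in the cKO library MG18 and at 19.4 and 21.8 FPKM in the controls MG15 and MG17, and at or below 0.0141 FPKM in the cKO library MG19 and the control MG16. Xist, the RNA of the inactive X chromosome, was at 96.3 FPKM in MG19 and 66.6 FPKM in MG16, at 3.84 FPKM in MG18, and below 0.1 FPKM in MG15 and MG17. MG18 is taken as male by its Ddx3y, but its Xist was above that of MG15 and MG17, so this label is less certain. Nxf3 was on in the cKO library of each sex, at 3.36 FPKM in the male MG18 and 2.03 FPKM in the female MG19, and at 0 in the controls of each. Nxt2 was at 13.2 FPKM in the male cKO library, against 14.7 and 21.7 FPKM in the male controls, and at 11.4 FPKM in the female cKO library, against 14.5 FPKM in the female control. With MG18 taken as male, the pattern of both genes was the same within each sex, with 1 cKO library per sex and no test.

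Among 22752 genes other than small RNAs, 6020 were listed at 0 in all 3 controls, and 148 of these were above 0 in both cKO libraries (0.65% of the 22752). Nxf3 is one of the 148, and 26 of them had a cKO mean of at least 1 FPKM. Nxf3, with a cKO mean of 2.69 ± 0.940 FPKM (SD, n = 2), was at rank 14 in this set. The reverse pattern, 0 in both cKO libraries and above 0 in all 3 controls, was seen for 100 genes, and 5448 genes were at 0 in every library, Nxf7 among them. Of 357 X-linked genes at 0 in the controls, 35 were above 0 in both cKO libraries, and of 559 X-linked genes tested, 39 (6.98%) were called higher and 3 (0.537%) lower.

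**Figure D2:**
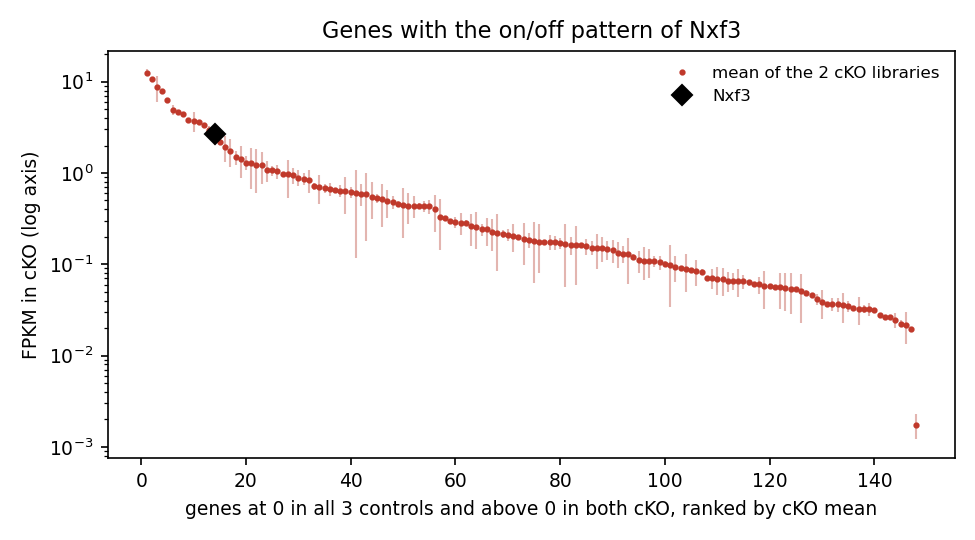
Mean FPKM over the 2 cKO libraries (points, log axis) of the 148 genes listed at 0 in all 3 controls and above 0 in both cKO libraries, ranked by that mean; thin lines join the 2 cKO values. Nxf3 (black diamond) is at rank 14 with a mean of 2.69 FPKM.

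The genes whose levels over the 5 libraries lay closest to those of Nxf3 are listed as a description. Closeness was the root mean square distance between the 5 log2(FPKM + 0.1) values. Genes found in this way share the on and off pattern by construction, and nothing is read from it. Sohlh2, a transcription factor of early germ cell differentiation, was closest at a distance of 0.164, with 3.26 and 2.64 FPKM in cKO and 0 in the controls. Xlr4c, an X-linked gene of the Xlr family, followed at 0.285 with 4.65 and 2.79 FPKM in cKO and 0 in the controls. Cyct, the testis form of cytochrome c, was at 0.305 with 2.08 and 2.25 FPKM in cKO and 0 in the controls.

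For the broadly expressed members, the closest genes were found in the same way, so they too share the levels of the member by construction. Those of Nxf1 were H2afv (distance 0.0433), Zfr (0.0648) and Ccny (0.0801). Those of Nxt1 were Ttc4 (0.0814), Actr6 (0.114) and Bbip1 (0.125), and those of Nxt2 were Kif22 (0.0859), Cebpzos (0.0954) and Lyrm4 (0.102). Ttc4 and Kif22 had their highest value in MG17, at 42.4 and 23.1 FPKM, as Nxt1 and Nxt2 did.

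Nxf2, Nxf7 and Nxf3 lie in this order within 1195.053 kb of the X chromosome in the RefSeq annotation of GRCm38.p6, with 614.801 kb between Nxf2 and Nxf7 and 472.742 kb between Nxf7 and Nxf3. Nxt2 starts 6087.191 kb beyond Nxf3. Genes around them, which the choice of members did not use, were counted to see whether the difference at Nxf3 extended to expressed neighbours. Of 46 other genes within 500 kb of the 4 X-linked members, 32 were tested and 0 were called in either direction (limma), against 4.03% of all genes tested. The rest averaged less than 0.1 FPKM and were not tested, so the counts speak for expressed neighbours only. Of the tested neighbours, 30 averaged 1 FPKM or more. Among all genes at that level calls were fewer, with 171 of 12078 higher and 64 lower, so a count of 0 among the neighbours says little. Among the untested neighbours, AV320801 and Gm15023 had the on and off pattern at trace level, beside 0.65% of genes other than small RNAs. Pramel3, Btk and Gucy2f were also above all controls in both cKO libraries. That order was seen for 14.5% of all genes tested, and its share among untested genes was not counted. Of the 32 tested, 2 had an unadjusted p under 0.05, both lower in cKO, beside 1695 of all 14691 genes tested.

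The gene nearest to the 3′ end of Nxf3, Bex2, at 3287 bases, had 227 and 184 FPKM in cKO, against 247, 199.7 and 191 FPKM in the controls (log2 difference -0.05, SE 0.19). Bex4, on the opposite strand, overlaps the far end of the RefSeq span of Nxf3 but lies outside its GENCODE span, and how reads in such overlaps were assigned is not stated in the sources used here. It had 65.4 and 52.6 FPKM in cKO, against 72.6, 58.2 and 73.7 FPKM in the controls (log2 difference -0.21, SE 0.18). Both genes encode small brain-expressed X-linked proteins, and both were at high levels in libraries in which Nxf3 was listed at 0. Tceal8, the next tested gene beyond Bex4, had 29.8 and 23.4 FPKM in cKO, against 34.3, 32.9 and 47.5 FPKM in the controls (log2 difference -0.51, SE 0.20, adjusted p = 0.383, limma). The other neighbour with an unadjusted p under 0.05 was Wbp5 (log2 difference -0.61, SE 0.19, adjusted p = 0.25, limma). Over the 15 tested neighbours of Nxf3 the median log2 difference was -0.10, within a range of -0.61 to 0.33, and the median of all genes tested was -0.02.

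**Figure D3:**
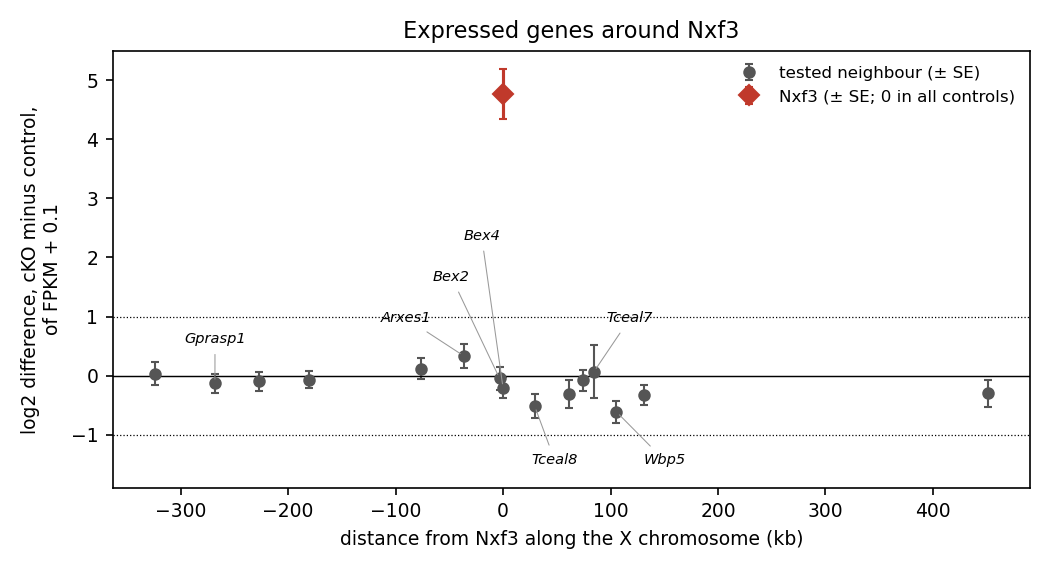
Log2 difference (cKO minus control) of FPKM + 0.1 with its SE, for Nxf3 (red diamond) and the 15 tested genes within 500 kb of it (grey), by distance from Nxf3 in kb; dotted lines mark 2-fold. Nxf3 is at 4.76 and its neighbours lie between -0.61 and 0.33.

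Around Nxf2, the nearest tested genes were Zmat1, 6618 bases away, with a log2 difference of -0.58 (SE 0.54), and Armcx2 on the other side at -0.06 (SE 0.15). Around Nxf7 they were Tceal6 at 0.21 (SE 0.31) on one side and, on the other, Armcx5 at 0.03 (SE 0.20) and Gprasp1 at -0.13 (SE 0.16), which start at the same base. Beside Nxt2 the nearest tested gene was the transcribed pseudogene Gm5643, with 12.2 and 12.8 FPKM in cKO, against 0.00164, 9.33 and 31.3 FPKM in the controls (log2 difference 2.02, SE 1.85). Its control values spanned the cKO values on both sides.

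The RefSeq promoters of Nxf1, Nxf2, Nxf7 and Nxt1, 250 bases before to 50 after the gene start (GRCm38.p6), were compared for their CG dinucleotides, the sites that DNA methylation uses. The Nxf1 promoter held 38 CG dinucleotides, more than 95.2% of 27025 promoters of the same length, whose median was 7. Nxt1 and Nxf2 held 20 each (more than 73.2% of promoters) and Nxf7 held 2 (more than 14.6%). Nxf3 had no promoter entry, and the entries of Nxt2 lie at starts inside the gene and are not described. The promoters of the pair of relatives that were near or at 0 in both groups are shown because they lie far apart in CG count, with CG in capitals, Nxf2 at chrX:134964705-134965004 and Nxf7 at chrX:135598732-135599031, both on the minus strand.
Nxf2 promoter: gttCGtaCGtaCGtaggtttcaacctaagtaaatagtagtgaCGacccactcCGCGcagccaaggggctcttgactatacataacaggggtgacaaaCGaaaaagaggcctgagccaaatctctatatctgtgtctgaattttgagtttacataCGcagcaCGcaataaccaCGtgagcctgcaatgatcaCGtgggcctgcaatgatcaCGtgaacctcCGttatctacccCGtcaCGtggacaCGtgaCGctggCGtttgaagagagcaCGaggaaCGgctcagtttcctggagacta
Nxf7 promoter: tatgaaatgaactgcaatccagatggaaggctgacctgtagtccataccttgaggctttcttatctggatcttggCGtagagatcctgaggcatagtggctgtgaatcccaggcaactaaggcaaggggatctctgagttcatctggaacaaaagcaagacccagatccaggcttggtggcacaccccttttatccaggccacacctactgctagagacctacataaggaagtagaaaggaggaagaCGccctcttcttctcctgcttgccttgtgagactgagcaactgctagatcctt

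The letters CACGTG, which read the same on both strands and contain a CG, occurred 5 times in the Nxf2 promoter and 0 times in those of Nxf1, Nxf7 and Nxt1. At least 1 copy was in 7.24% of all promoters, and at least 4 copies were in 6 promoters (0.0222%). These matches describe the letters of the window only, and no methylation was analysed here. Nxf2 and Nxt1 had the same CG count, with 0.0199 FPKM against 27.2 FPKM as the cKO means.

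Other genes of mRNA export, listed together with karyopherin and Ran export genes, were measured in all libraries, and none of them was called. Of 78 genes in 6 lists, all 78 were tested, and 0 were called higher and 0 lower (limma), against 2.87% and 1.16% of all genes. These 78 genes all averaged at least 3.81 FPKM. Among genes averaging 1 FPKM or more, calls were fewer, with 171 of 12078 higher and 64 lower, so a count of 0 among 78 says little. An unadjusted p under 0.05 was seen for 2 of the 78, beside 1695 of all 14691 genes tested. The log2 differences ranged from -0.44 to 0.42 with a median of -0.11, beside -0.02 over all genes tested. The difference was below 0 for 58 of 78 genes, beside 7670 of 14691 genes in all, and for 48 of 78 after quantile normalization, with a median of -0.06.

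The 2 genes with an unadjusted p under 0.05 act at early steps. Ncbp2, the cap-binding subunit of the nuclear cap-binding complex, had 44.5 and 50.2 FPKM in cKO, against 63.6, 63.6 and 65.9 FPKM in the controls (log2 difference -0.44, SE 0.15, adjusted p = 0.288, limma). Alyref, the adapter that hands mRNA to Nxf1, had 84.0 and 85.7 FPKM in cKO, against 112, 98.0 and 117 FPKM in the controls (log2 difference -0.36, SE 0.16, adjusted p = 0.427, limma). Both cKO libraries lay below all controls for each of these genes, as for 16 of the 78, and above all controls for 5 of the 78, beside 16.3% and 14.5% of all genes tested.

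In the list of the TREX complex and mRNA adapters, which couples splicing to Nxf1 loading, 7 of 25 genes had a difference above 0 and 18 below (median -0.14). Its most abundant genes were the splicing factors Srsf7 (log2 difference -0.21, SE 0.20) and Srsf3 (-0.27, SE 0.18), both known to recruit Nxf1. Rbm15, an adapter of Nxf1, was at 0.05 (SE 0.19). The TREX-2 list, which links transcription sites to the pore, had 1 of 6 genes above 0 (median -0.19), with Shfm1 at -0.29 (SE 0.20) and Cetn3 at -0.28 (SE 0.18).

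Among genes for docking at the pore and release from it, 6 of 23 were above 0 (median -0.07), with the nucleoporins Nup88 at -0.29 (SE 0.15) and Ranbp2 at -0.30 (SE 0.18). The exon junction complex, which marks spliced mRNA, had 3 of 9 above 0 (median -0.07), with Magoh at -0.19 (SE 0.21) and Acin1 at -0.14 (SE 0.27). The karyopherin and Ran list includes, beside other export factors, the exportin CRM1 that human NXF3 was described to use. It had 3 of 12 above 0 (median -0.11), with Ranbp1 at -0.09 (SE 0.18) and Ran at -0.15 (SE 0.17). Xpo1, which encodes CRM1, had 72.6 and 89.8 FPKM in cKO, against 77.0, 86.7 and 106 FPKM in the controls, with overlapping groups. The FMRP family, RNA-binding proteins reported to partner with Nxf2, had 0 of 3 above 0 (median -0.11), with Fmr1 at -0.07 (SE 0.19), Fxr1 at -0.34 (SE 0.16) and Fxr2 at -0.11 (SE 0.16).

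**Figure D4:**
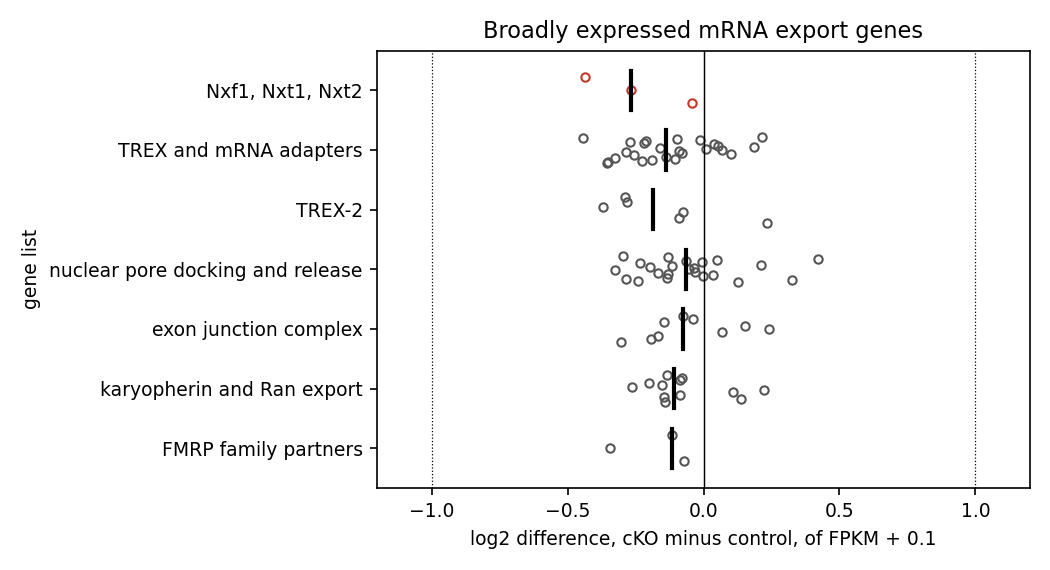
Log2 difference (cKO minus control) of FPKM + 0.1 for Nxf1, Nxt1 and Nxt2 (red) and the 78 genes of 6 mRNA export lists (grey circles, 1 per gene); black bars are medians and dotted lines mark 2-fold. All 78 genes lie between -0.44 and 0.42.

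Markers of cells in which Nxf relatives are known were measured beside Nxf3. For comparison with this and the following marker lists, 1695 of all 14691 genes tested had an unadjusted p under 0.05 (limma), 935 higher and 760 lower. Of all genes tested, 421 (2.87%) were called higher. Of 12 germ cell markers, 9 were tested, 2 had an unadjusted p under 0.05, both higher, and 1, Sohlh2, was called higher, while Sohlh1 and Stra8 were at 0 in all libraries and Pou5f1 was at 0 in both cKO libraries. The summed level of the list was 13.7 to 18.8 FPKM in cKO and 11.2 to 15.7 FPKM in the controls. Sohlh2 added 3.26 and 2.64 FPKM to it in cKO and 0 in the controls. Kit was its largest part, at 6.41 and 5.77 FPKM in cKO, against 7.64, 10.9 and 6.80 FPKM in the controls. Of 12 markers of gonadal somatic cells, 4 were tested and 0 called higher (limma; 0 at an unadjusted p under 0.05). The sum of the 12 was 5.33 to 7.69 FPKM in cKO and 6.77 to 10.2 FPKM in the controls. It was mostly Inha, at 6.91 and 4.51 FPKM in cKO, against 8.95, 8.23 and 5.51 FPKM in the controls. Nr5a1 and Hsd3b1 were at 0 in all libraries, and Wt1 and Cyp11a1 were at 0 in both cKO libraries.

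Of 12 markers listed for cortical neurons and progenitors, cells of the labelled tissue, all were measured, and 10 had a difference below 0. None was called (limma), and 5 had an unadjusted p under 0.05, all lower in cKO. For 6 of these 12 markers both cKO libraries lay below all controls, beside 16.3% of all genes tested. They summed to 956 to 974 FPKM in cKO and 1121 to 1476 FPKM in the controls, sums in which Neurod6 alone held 612 and 589 FPKM in cKO, against 712, 686 and 1013 FPKM in the controls. The 8 markers of the ganglionic eminence and interneurons all had a difference above 0, 4 with an unadjusted p under 0.05 and 1 called higher, and they summed to 72.6 to 91.5 FPKM in cKO and 55.3 to 60.7 FPKM in the controls.

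Of 9 markers of microglia and blood, 5 had a difference above 0 and 4 had an unadjusted p under 0.05, all higher in cKO. The 1 called higher was the globin gene Hba-a1, with 34.5 and 1.29 FPKM in cKO, against 0.0894, 1.26 and 4.4e-05 FPKM in the controls. The sum of the 9 markers, 153 to 254 FPKM in cKO and 162 to 390 FPKM in the controls, was mostly the globin gene Hbb-bt. The microglial genes Cx3cr1 (3.94 and 3.26 FPKM in cKO, against 2.22, 2.07 and 1.53 FPKM in the controls), Csf1r (4.97 and 5.47, against 2.85, 2.67 and 4.10 FPKM) and C1qa (10.1 and 10.05, against 8.34, 5.76 and 7.61 FPKM) were above all controls in both cKO libraries. Aif1, P2ry12 and Ptprc did not have this order. Aif1 was above all controls in MG18, at 1.84 FPKM, and below all controls in MG19, at 0.358 FPKM. P2ry12 had 2.82 and 4.23 FPKM in cKO, against 3.22, 3.11 and 6.11 FPKM in the controls. Both cKO libraries lay above all controls for 4 of the 9 markers, beside 14.5% of all genes tested. Of 10 endothelial and mesenchymal markers, 8 had a difference above 0, 3 had an unadjusted p under 0.05, all higher, and 2 were called higher, with sums of 125 to 131 FPKM in cKO and 107 to 145 FPKM in the controls. Both cKO libraries lay above all controls for only 1 of these 10 markers, so the 2 called genes did not both have this order. The part of these cell types in the values of the Nxf and Nxt genes was not tested.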

How the data were processed

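Paired reads of 100 bases from ribosome-depleted, strand-specific libraries were mapped to mm10 with TopHat2. Duplicated, multi-mapping, improperly paired and poorly aligned reads were removed, and the authors deposited 1 table of FPKM values per gene and library made with Cuffdiff and cummeRbund. Tool versions and the gene annotation are not stated in the sources used here.

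Genes averaging 0.1 FPKM or more were compared between cKO and control in limma 3.58.1 under R 4.3.3 (lmFit and eBayes with a trend) on log2(FPKM + 0.1), and p-values were adjusted after Benjamini and Hochberg over all 14691 genes tested. Of 1245 small RNA names, 64 reached the mean and were left out. A call needed an unadjusted p under 0.05 and over 2-fold. The fit was tested on simulated data. The labels name separate samples, and p-values measure the spread between these samples. Depth was estimated from steps between low values over 1613 single-transcript genes, where the share of low values no more than 0.25 away from whole fragments would be 50% with no steps. It was 77.7% in MG19, 77.5% in MG16 and 75.3% in MG17, but 64.3% in MG18 and 60.3% in MG15, whose depths are therefore not given. Fragment numbers are approximate, and no counting intervals are given.

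The members and gene lists were chosen with earlier results of these data known. The rule for named genes took the members, Uhrf1, the 3 genes closest in profile to each tested member, export genes past the call or else the 2 most abundant of each list, the nearest tested neighbours, Fmr1 and Rbm15. Xpo1, Ncbp2, Alyref and the neighbours Wbp5 and Tceal8 were named after their values were seen. Names were matched to RefSeq GRCm38.p6, 22500 by symbol and 1312 by a synonym, with 185 unmatched. Promoters came from RefSeq GRCm38.p6, with 5 of 6 members matched (not Nxf3), and exons from GENCODE M21 on GRCm38, the assembly that mm10 names. Alternatives were other pseudocounts (1 and 0.01 FPKM), filters, scalings, library weights, sex as a covariate and leaving out each library. Python 3.11.15, numpy 2.4.6, pandas 2.3.3, Biopython 1.88 and matplotlib 3.10.9 were used.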

Additional observations from a re-analysis of the deposited data

How the results depend on the processing

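No paired analysis was possible because the labels give no replicate numbers shared between the groups. In 13 alternatives, 5 of which leave out 1 library, the mRNA export genes and the X-linked neighbours kept a count of 0 calls in both directions. Genes called higher numbered 421, and 152 with a pseudocount of 1 FPKM and 171 among genes averaging 1 FPKM or more. Genes called lower numbered 171, and 24 with a pseudocount of 1 FPKM, 64 among genes averaging 1 FPKM or more and 280 after quantile normalization. Leaving out 1 library gave 388 to 562 higher and 151 to 313 lower, the 313 without MG18. At an adjusted p under 0.05, 161 were higher and 24 lower, against 32 to 132 and 2 to 20 with 1 library left out, and 98 to 220 and 14 to 50 under the other alternatives. The fitted log2 difference of Nxf3 was 4.76, 1.86 with a pseudocount of 1 FPKM, 8.03 with 0.01 FPKM, and 4.41 to 5.11 with 1 library left out. Nxf1 lay between -0.12 and 0.06, so its sign is not determined. Nxt1 lay between -0.43 and -0.04 and Nxt2 between -0.54 and -0.25. Uhrf1 lay between -2.25 and -1.68. With 2 cKO libraries, 1 of about 9684000 fragments and 1 of unknown depth, a low level of Nxf2 or Nxf7 in cKO would not have been detectable.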

Other observations

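The untested genes between Nxf2 and Nxf3 or inside them were at 0 or at trace level. Pramel3, of the PRAME-like family, had 0.0568 and 0.0618 FPKM in cKO, against 0.00579, 0 and 0 FPKM in the controls. AV320801 had 0.0560 and 0.0602 FPKM in cKO and 0 in all controls, and Gm15023 had 0.00121 and 0.00228 FPKM in cKO and 0 in all controls. Both are thus among the 148 genes with the on and off pattern of Nxf3. The long noncoding RNA 3632454L22Rik had 0.0531 and 0.120 FPKM in cKO, against 0.103, 0.0176 and 0.0964 FPKM in the controls, a trace in both groups. The long noncoding RNA 5730412P04Rik, inside the RefSeq span of Nxf3, had 0.0901 FPKM in MG18 and 0 in MG19 and in all controls. Prame, Gm7903, Tmsb15a and 1700008I05Rik were at 0 in all 5 libraries. In MG19, 1 fragment per kilobase is worth about 0.103 FPKM.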
